A study of Mus musculus with 24 samples.

Results

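Expression of 10 genes that serve the visual cycle and the transport of the retinal pigment epithelium was followed in mouse choroid. The genes were Lrat, Rpe65, Rdh5, Rdh10, Rlbp1, Rgr, Stra6, Ttr, Slc16a8 and Best1. They were chosen by name from the table of normalized counts, in which all 10 were found among 56065 genes, and all 10 were above 0 in every one of the 24 libraries. A normalized count is the number of reads estimated for a gene, scaled by the authors for library size and transcript length between libraries, and not between genes.

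Each library was made from choroid of wild type mice or of Ceacam1-/- mice, which lack exons 1 and 2 of Ceacam1 in every cell. Both were adult littermates of either sex on a C57BL/6J background, and age and sex were not given per library. Of the 24 libraries, 4 were from wild type mice without laser (libraries 21, 22, 26 and 27), 4 from Ceacam1-/- mice without laser (23, 24, 25 and 28), 9 from wild type mice with laser (1, 2, 3, 11, 12, 13, 16, 17 and 19) and 7 from Ceacam1-/- mice with laser (4, 5, 6, 7, 14, 15 and 18). Laser meant 6 spots of 200 µm, 150 mW and 100 ms in each eye, which were set to induce choroidal neovascularization. The time between laser and tissue collection was not given in the sources used here. For its cell sorting the study defined choroid as the complex of pigment epithelium, choroid and sclera left after the retina was taken off. Libraries summed to between 23704346 and 35094410 normalized counts, which are scaled values and not the number of reads, so the depth of each library is unknown. The labels do not say whether each library came from a separate mouse. The study's text counts the choroid samples without laser by mice and does not speak of those with laser, so p-values measure the spread between these libraries, which may be technical in part.

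The pigment epithelium is a single layer of cells between the photoreceptors and the choroidal vessels. It takes up retinol from the blood and all-trans retinol from the photoreceptors, turns both into the cis form of retinal that light-sensitive opsins need, and returns it to the photoreceptors. The same cells pass lactate, chloride and water from the retina towards the choroid.

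The bases before the start site are shown for the 3 members whose window held the hexamer CATGTG, an E-box that the pigment cell factor MITF is known to bind. Each window is the 250 bases before the first base of the canonical transcript in GRCm39, printed 5′ to 3′ on the strand of the gene. Capitals mark CATGTG or its reverse complement CACATG, and TAATCC or its reverse complement GGATTA, a core that the homeobox factors OTX2 and CRX are known to bind.
Rpe65, chr3:159304552-159304801, plus strand: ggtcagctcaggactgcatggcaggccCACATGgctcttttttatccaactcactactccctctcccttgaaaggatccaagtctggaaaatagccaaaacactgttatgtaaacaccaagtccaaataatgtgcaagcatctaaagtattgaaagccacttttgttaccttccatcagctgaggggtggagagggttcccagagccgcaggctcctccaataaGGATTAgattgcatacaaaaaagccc
Rgr, chr14:36770922-36771171, minus strand: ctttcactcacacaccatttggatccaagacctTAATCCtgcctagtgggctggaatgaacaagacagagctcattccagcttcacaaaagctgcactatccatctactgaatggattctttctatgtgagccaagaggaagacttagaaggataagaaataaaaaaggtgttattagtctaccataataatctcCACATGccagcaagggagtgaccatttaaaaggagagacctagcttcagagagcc
Rdh5, chr10:128755438-128755687, minus strand: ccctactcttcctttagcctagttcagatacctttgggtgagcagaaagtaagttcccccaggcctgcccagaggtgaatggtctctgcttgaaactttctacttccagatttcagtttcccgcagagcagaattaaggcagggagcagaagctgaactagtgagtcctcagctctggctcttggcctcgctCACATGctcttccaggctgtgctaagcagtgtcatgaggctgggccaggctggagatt
The windows of Rpe65 and Rgr lay directly before the annotated gene, and that of Rdh5 lay within the annotated span of Rdh5, whose exons overlap Bloc1s1. Overlap of the windows themselves with other genes is not reported here. CATGTG was in 3 of the 10 windows and in 10.5% of the 21770 windows of protein-coding genes, and TAATCC was in 3 (Rpe65, Rgr and Best1) and in 7.0%. A further hexamer, CACGTG, which reads the same on both strands and does not overlap the others, was in 0 of the 10 windows and in 6.26% of all windows. A match is a description of letters in the window and was not tested as a binding site.

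Ceacam1 itself was read in every library to check the labels. In wild type libraries its normalized count ran from 774 in library 13 to 8367 in library 19. In Ceacam1-/- libraries it ran from 67.8 in library 18 to 1171 in library 28, and only libraries 15 (905) and 28 lay within the wild type range. Krt12, a keratin of the corneal epithelium, was high in both of these (178593 in library 15 and 61194 in library 28) and in wild type library 22 (175232). Library 19 with the highest Ceacam1 had a Krt12 of 16.4, and its 8 surface epithelium genes together took 0.594% of the library. The part of surface epithelium in the level of Ceacam1 was not tested. The 10 members together took between 0.180% and 2.82% of a library's total. All 47 of 47 other pigment epithelium genes were above 0 in every library, but so were 16 of 16 rod, 12 of 12 Müller glia, 12 of 12 endothelial and 14 of 14 myeloid genes, so that presence alone does not tell these cell types apart. Some libraries stood apart by their share of rod photoreceptor genes. These genes took 2.80% to 5.35% of Ceacam1-/- libraries 14, 15 and 18 with laser and of libraries 21 and 23 without laser. In the others they took at most 1.23%. Fold changes of the members for laser in Ceacam1-/- mice and for genotype with laser are also given without these 5 libraries.

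Levels between genes were compared per kilobase of the canonical transcript, as the mean over 24 libraries. Ttr was the highest with 103206 ± 73170 normalized counts per kb (SD, n = 24) and Best1 the lowest with 20.0 ± 8.45. Between them came Rgr (25305 ± 15279), Rdh5 (16600 ± 10690), Rpe65 (14222 ± 8635), Rlbp1 (8165 ± 4684), Slc16a8 (4852 ± 2830), Rdh10 (3270 ± 1997), Lrat (2019 ± 1283) and Stra6 (1290 ± 863). Ttr stood above Rgr, Rgr above Rdh5, Rdh10 above Lrat and Stra6 above Best1 in all 24 libraries. The other neighbours changed places in some libraries, and Rdh5 was above Rpe65 in 20, Rpe65 above Rlbp1 in 21, Rlbp1 above Slc16a8 in 23, Slc16a8 above Rdh10 in 20 and Lrat above Stra6 in 23 of 24. The level of Best1 per kb was under that of Stra6 by a factor between 7.18 and 222, so that the bestrophin-1 transcript was scarce in these libraries. The level of Rdh5 is uncertain, because 70.7% of its annotated exon bases are shared with Bloc1s1 on the same strand and reads there can be split between both genes.

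No member passed the threshold of an adjusted p of 0.05 in any of the 5 comparisons made with limma. Of all genes tested, 5.28% passed for laser in wild type mice, 3.72% for laser in Ceacam1-/- mice, 0% for their interaction, 0% for genotype without laser and 0.0202% for genotype with laser. The groups overlapped for every member, but the share of all genes whose groups overlap was not computed. In laser-treated Ceacam1-/- choroid, however, all 10 members lay below both the unlasered Ceacam1-/- choroid and the laser-treated wild type choroid in their mean log2 values. The median log2 fold change over the members was -1.56 for laser in Ceacam1-/- mice and -1.53 for genotype with laser, against -0.01 for laser in wild type mice and -0.16 for genotype without laser. Without the 5 libraries richest in rod genes, 3 of which were laser-treated Ceacam1-/- libraries, the first 2 medians were -0.66 and -0.55. Over all genes tested in the same fits with no library left out, the medians of these 4 comparisons were 0.02, 0.01, -0.10 and -0.02. Fold changes are on the scale of log2 of the normalized count plus 1. In tissue of mixed cells, fewer pigment epithelial cells and less RNA per cell cannot be told apart.

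**Figure D1:**
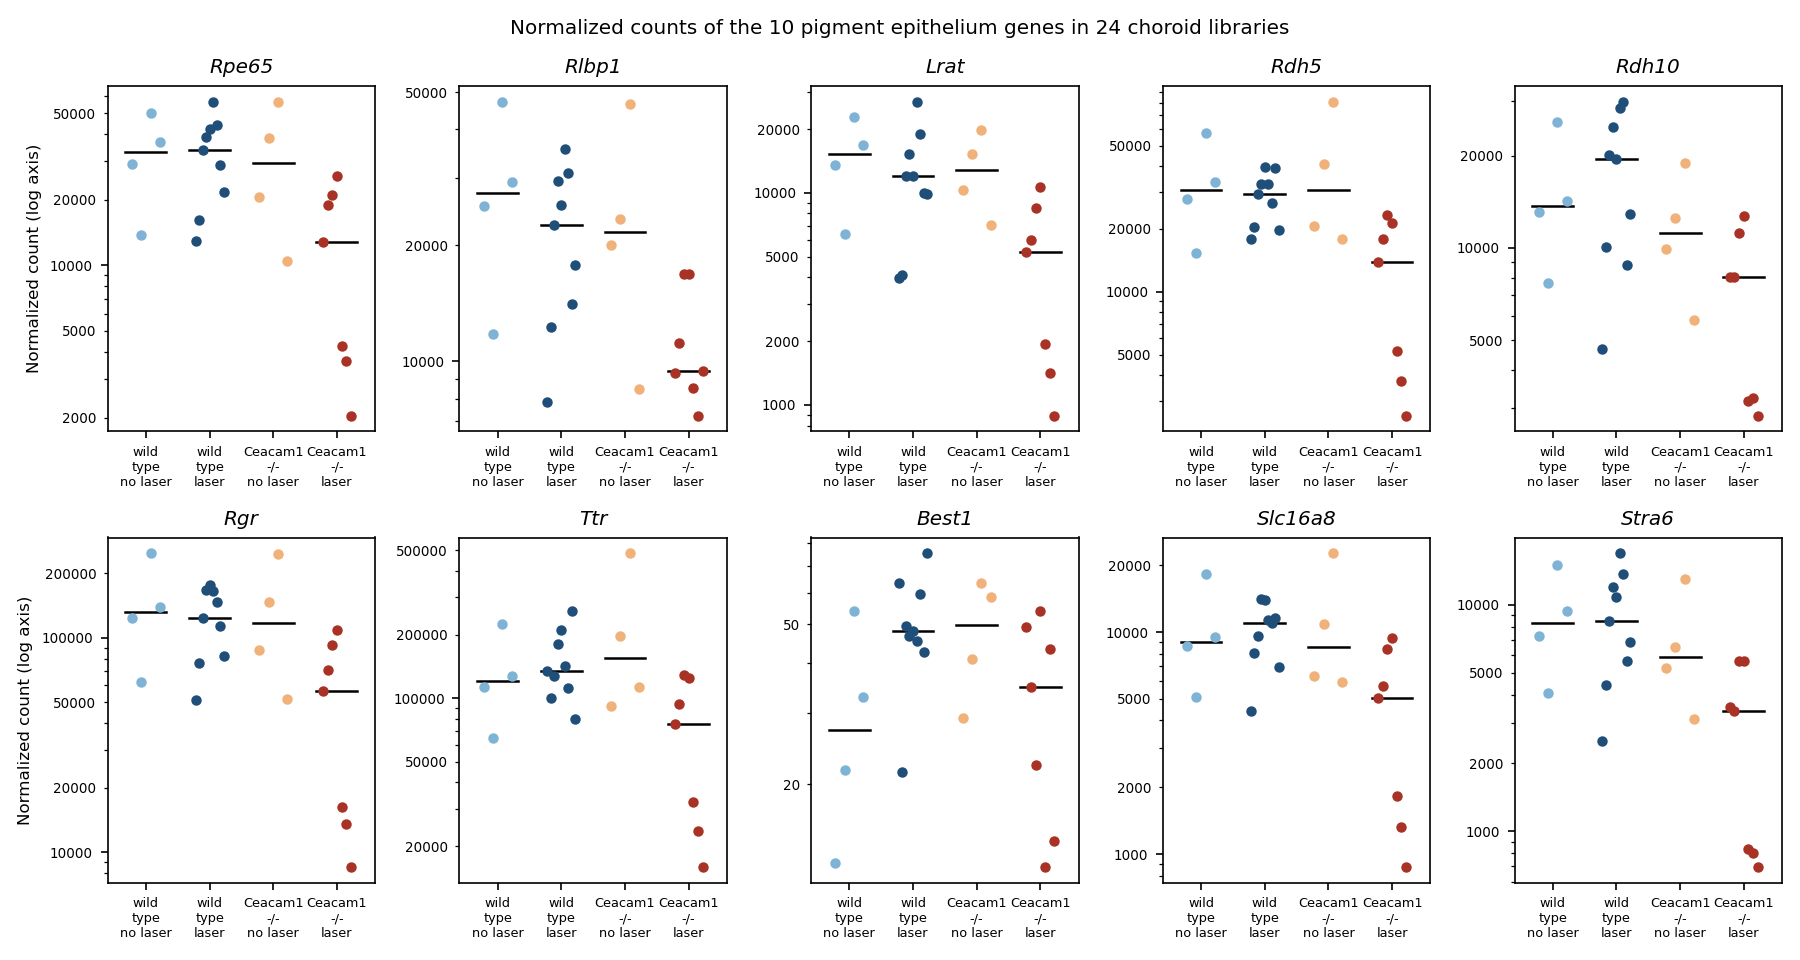
Normalized counts (log axis) of each member in each library, by group. Points are libraries and lines are group medians. For 8 members the same 3 Ceacam1-/- libraries with laser lie under all other libraries.

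Lrat (chromosome 3, 82799886 to 82811288) forms the retinyl esters that are stored in the pigment epithelium and feed the cycle. Its normalized counts were 13558, 6408, 22860 and 16870 in wild type libraries 21, 22, 26 and 27 without laser and 10337, 15194, 19687 and 7022 in Ceacam1-/- libraries 23, 24, 25 and 28. With laser they ran from 3979 over a median of 12014 to 26915 in wild type and from 892 over a median of 5247 to 10715 in Ceacam1-/- mice. The groups without laser lay in the same range, and 5 of 7 laser-treated Ceacam1-/- libraries were under all 4 unlasered ones. The log2 fold change for laser in Ceacam1-/- mice was -1.78 (standard error 0.61, adjusted p = 0.0968) and that for genotype with laser was -1.59 (standard error 0.52, adjusted p = 0.138).

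Rpe65 (chromosome 3, 159304802 to 159330958) is the isomerohydrolase that turns these esters into the cis form of retinol. Its normalized counts were 29311, 13711, 50048 and 36911 in wild type libraries 21, 22, 26 and 27 and 20552, 38202, 56161 and 10506 in Ceacam1-/- libraries 23, 24, 25 and 28. With laser, wild type libraries ran from 12963 in library 1 over a median of 33812 to 56349 in library 13. The Ceacam1-/- libraries 4, 5, 6 and 7 held 12803, 18995, 20963 and 25636, and libraries 14, 15 and 18 held 4286, 3644 and 2045. These last 3 were under all other 21 libraries, while the other 4 lay within the range of the remaining groups. Rpe65 lay 2.96-fold lower in laser-treated than in unlasered Ceacam1-/- choroid (log2 fold change -1.56, standard error 0.62, adjusted p = 0.154) and 3.37-fold lower than in laser-treated wild type choroid (-1.75, standard error 0.50, adjusted p = 0.119). These log2 fold changes of Rpe65 were -0.57 (adjusted p = 0.536) and -0.65 (adjusted p = 0.670) without the 5 rod-rich libraries. In wild type mice the difference with laser was 0.02 (95% interval -1.20 to 1.24), which leaves changes of over 2-fold in either direction within the interval.

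Rdh5 (chromosome 10, 128749385 to 128759341), the dehydrogenase that oxidizes the cis form of retinol, came closest to the threshold. It had 27723, 15339, 57150 and 33343 normalized counts in the unlasered wild type libraries 21, 22, 26 and 27 and 20522, 40911, 80954 and 17959 in the Ceacam1-/- libraries 23, 24, 25 and 28. With laser the wild type libraries ran from 17829 over a median of 29363 to 39440 and the Ceacam1-/- libraries from 2568 over a median of 13863 to 23290. For laser in Ceacam1-/- mice the log2 fold change was -1.83 (standard error 0.54), with an adjusted p of 0.0583 that ran from 0.0265 to 0.318 over the alternative settings. For genotype with laser it was -1.56 (standard error 0.43, adjusted p = 0.112).

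Rdh10 (chromosome 1, 16175555 to 16203958), is a retinol dehydrogenase for the all-trans form. Its counts ran from 7668 to 25627 in unlasered wild type, from 4668 to 29952 in laser-treated wild type, from 5826 to 18874 in unlasered Ceacam1-/- and from 2842 to 12707 in laser-treated Ceacam1-/- libraries. The log2 fold changes were -0.86 for laser in Ceacam1-/- mice (standard error 0.51, adjusted p = 0.357) and -1.35 for genotype with laser (standard error 0.42, adjusted p = 0.131).

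Rlbp1 (chromosome 7, 79024602 to 79038176) encodes CRALBP, which binds the cis retinoids and is made by Müller glia of the retina as well as by the pigment epithelium. Normalized counts of 25386, 11757, 47195 and 29203 were found in wild type libraries 21, 22, 26 and 27 without laser, and of 20075, 23372, 46680 and 8503 in Ceacam1-/- libraries 23, 24, 25 and 28. Laser-treated wild type libraries ran from 7849 over a median of 22560 to 35478. Laser-treated Ceacam1-/- libraries kept within 7241 and 16905, a 2.33-fold span, where Rpe65 spanned 12.5-fold. Libraries 14, 15 and 18 did not stand apart for Rlbp1, with 8528, 7241 and 9420. The log2 fold changes were -0.94 for laser in Ceacam1-/- mice (standard error 0.44, adjusted p = 0.226) and -0.86 for genotype with laser (standard error 0.30, adjusted p = 0.147).

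Rgr (chromosome 14, 36756866 to 36770921), an opsin of the pigment epithelium and Müller glia that takes part in retinoid isomerization, was the most abundant member per kb after Ttr. Its counts ran from 62475 to 248073 in unlasered wild type, from 51318 to 175830 in laser-treated wild type and from 51980 to 245379 in unlasered Ceacam1-/- libraries. In laser-treated Ceacam1-/- libraries they ran from 8531 over a median of 56187 to 108802. The log2 fold change for laser in these mice was -1.66 (standard error 0.62, adjusted p = 0.131).

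Among the transport genes, Stra6 (chromosome 9, 57970967 to 58063543) encodes the receptor through which retinol enters the cell from its plasma carrier. It had 7251, 4073, 14984 and 9376 normalized counts in unlasered wild type libraries 21, 22, 26 and 27, and 5258, 6502, 12967 and 3116 in Ceacam1-/- libraries 23, 24, 25 and 28. Laser-treated wild type libraries ran from 2504 over a median of 8499 to 16856 and laser-treated Ceacam1-/- libraries from 696 over a median of 3407 to 5654. It showed the lowest log2 fold change of the members for genotype with laser, -1.90 (standard error 0.51, adjusted p = 0.112), with an adjusted p between 0.0610 and 0.626 over the alternative settings.

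Ttr (chromosome 18, 20797253 to 20807467) encodes transthyretin, the carrier of thyroxine and of retinol-binding protein. Its normalized counts were 113088, 64797, 223595 and 127750 in unlasered wild type libraries 21, 22, 26 and 27 and 91868, 198028, 485527 and 112724 in Ceacam1-/- libraries 23, 24, 25 and 28. With laser they ran from 80150 over a median of 134473 to 259891 in wild type and from 15912 over a median of 75382 to 128723 in Ceacam1-/- mice. Unlasered Ceacam1-/- library 25 was the highest of all for Ttr, and without it the other 3 lay between 91868 and 198028. Liver and choroid plexus also make Ttr, and the liver genes Alb and Fgb reached at most 5.08 and 2.35 normalized counts while Serpina1a was listed at 0 in all libraries. Apoa2, another liver gene, ran from 2.20 to 42.2 normalized counts. Of the choroid plexus genes, Clic6 reached 12916 and Otx2 8593, both of which pigment epithelium expresses too, and Kcne2 reached 1564, Folr1 735 and Kl 64.3. The part of other tissues in the level of Ttr was not tested. The log2 fold change of Ttr was -1.71 for laser in Ceacam1-/- mice (standard error 0.56, adjusted p = 0.0830) and -1.37 for genotype with laser (standard error 0.43, adjusted p = 0.132).

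Slc16a8 (chromosome 15, 79135214 to 79138964), the lactate carrier MCT3 of the basal membrane, ran from 4392 to 22647 normalized counts in the 3 other groups and from 875 over a median of 5026 to 9367 in laser-treated Ceacam1-/- libraries. Here 5 of 7 were under all 4 unlasered Ceacam1-/- libraries. The log2 fold change for laser in Ceacam1-/- mice was -1.55 (standard error 0.55, adjusted p = 0.111). Best1 (chromosome 19, 9962538 to 9978997), a chloride channel of the same membrane, had only 12.4 to 75.3 normalized counts. Unlasered wild type libraries 21, 22, 26 and 27 held 12.7, 21.7, 54.1 and 32.9, and laser-treated wild type libraries ran from 21.4 over a median of 48.3 to 75.3. It was the member with the highest log2 fold change for laser in wild type mice, 0.83 (standard error 0.42, adjusted p = 0.272), and the one closest to 0 for laser in Ceacam1-/- mice, with -0.66 (standard error 0.44, adjusted p = 0.416).

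**Figure D2:**
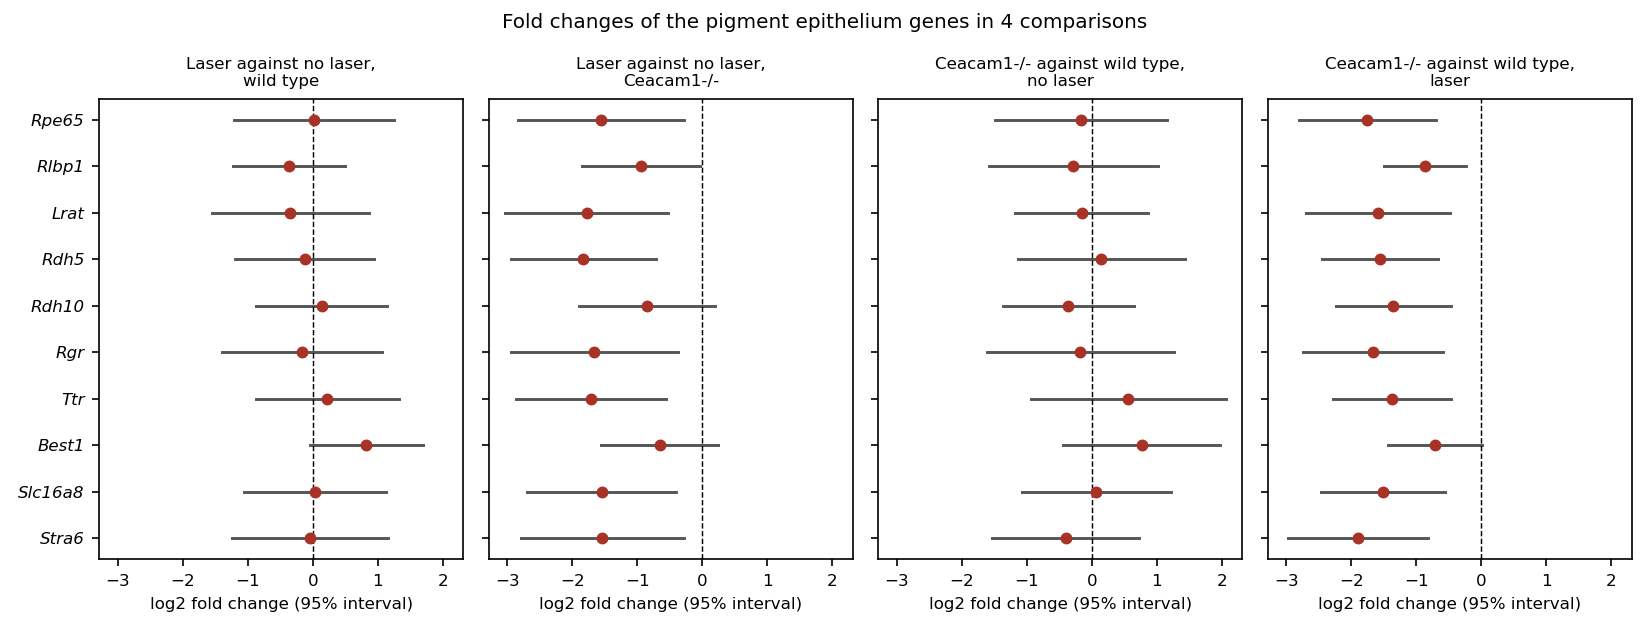
Log2 fold change of each member with its 95% interval from limma, in 4 comparisons. All 10 estimates lie below 0 for laser in Ceacam1-/- mice and for genotype with laser, and on both sides of 0 in the other 2 comparisons.

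The counts of called members were read against the whole table. For laser in wild type mice 0 of 10 members and 5.28% of 19950 genes were called, and 0 members and 3993 genes had an unadjusted p under 0.05. For laser in Ceacam1-/- mice 0 of 10 members and 3.72% of genes were called, with 8 members and 3997 genes at an unadjusted p under 0.05. For genotype without laser 0 members and 0% of 20057 genes were called, with 0 members and 307 genes at an unadjusted p under 0.05. For this comparison the paper did report differentially expressed genes, with DESeq2 and sex as a covariate. The 0% therefore belongs to the test used here, which did not call Ceacam1 itself either. For genotype with laser 0 members and 0.0202% of 19757 genes were called, with 9 members and 4479 genes at an unadjusted p under 0.05. Comparisons that share a group, such as the last with laser in Ceacam1-/- mice, are not independent of each other. The test of whether laser differed between genotypes called 0 members and 0% of 19950 genes, with 3 members (Rdh5, Ttr and Best1) and 1241 genes at an unadjusted p under 0.05. Its log2 values for the members were all below 0, from -1.94 for Ttr to -0.58 for Rlbp1, with adjusted p from 0.640 to 0.726, so a difference between genotypes in the response to laser was not shown for any member. The median of these values was -1.50, and it was -0.53 without the 5 libraries richest in rod genes.

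The 3 Ceacam1-/- libraries 14, 15 and 18 with laser stood apart. For 8 members (all but Rlbp1 and Best1) they were the lowest of all 24 libraries. The members summed to 0.314%, 0.231% and 0.180% of these libraries, against 0.746% to 1.37% in libraries 4, 5, 6 and 7 of the same group. The 16 rod photoreceptor genes were all above 0 and summed to 5.28%, 2.80% and 5.35% there and to 0.0454% to 0.773% in libraries 4, 5, 6 and 7. High rod sums without low members were seen in unlasered libraries 21 and 23, with 2.84% and 3.06% rod genes and 1.51% and 1.14% members. The 10 melanin genes, which the pigment epithelium shares with choroidal melanocytes and of which Dct was the most abundant, were low in the same 3 libraries with 0.0502%, 0.119% and 0.0442%, against 0.400% to 0.824% in libraries 4, 5, 6 and 7. In libraries 21 and 23 they were at 0.223% and 0.191%. The 12 Müller glia genes, led by Vim, summed to 0.257%, 0.193% and 0.309% in libraries 14, 15 and 18 and to 0.109% to 0.305% in the 21 others. Vim alone had 10877, 9703 and 9338 normalized counts in libraries 14, 15 and 18. It had 19251 to 29989 in libraries 4, 5, 6 and 7, and 6465 to 50709 over all libraries. A low Vim can hide higher values of other genes in this sum, and the sum without Vim was not computed. Genes of some other cell types were also lower in libraries 14, 15 and 18 than in libraries 4, 5, 6 and 7. The 12 endothelial genes summed to 0.0530%, 0.0980% and 0.0692% in libraries 14, 15 and 18, under the 0.106% to 0.242% of the 21 others. The 14 myeloid genes summed to 0.149%, 0.118% and 0.0839%, against 0.319% to 0.430% in libraries 4, 5, 6 and 7, and the 10 scleral and stromal fibroblast genes to 0.208%, 0.477% and 0.405%, against 1.77% to 2.88%. Unlasered Ceacam1-/- libraries held 0.0467% to 0.0793% myeloid and 0.189% to 0.900% fibroblast genes. Unlasered wild type libraries held 0.0550% to 0.107% and 0.416% to 0.849%. Not all lists were low in library 15, where surface epithelium genes took 2.37%. Striated muscle genes took 0.705% of library 15, against 0.432% to 1.11% in libraries 4, 5, 6 and 7. The part of tissue content, retinal RNA included, in the lower member levels was not tested. Without the 5 libraries richest in rod genes (14, 15, 18, 21 and 23), 0 members were called for laser in Ceacam1-/- mice and for genotype with laser, where 14.9% and 0.0104% of all genes were called. All 10 members still lay below 0 in these 2 comparisons. For laser in Ceacam1-/- mice Rdh5 then had a log2 fold change of -1.06 (adjusted p = 0.124), Ttr of -1.10 (adjusted p = 0.153) and Rdh10, the closest to 0, of -0.19 (adjusted p = 0.860). The log2 fold change of the other members was -0.81 for Lrat, -0.72 for Slc16a8, -0.68 for Rlbp1, -0.63 for Rgr, -0.53 for Stra6 and -0.48 for Best1, with adjusted p from 0.314 for Slc16a8 to 0.578 for Stra6. For genotype with laser Stra6 remained the lowest with -0.82 (adjusted p = 0.626). The log2 fold change for genotype with laser was -0.64 for Rdh10, -0.58 for Rlbp1, -0.56 for Rdh5, -0.54 for Lrat, -0.52 for Rgr, -0.47 for Slc16a8, -0.44 for Ttr and -0.33 for Best1, with adjusted p from 0.521 for Rdh5 to 0.864 for Best1.

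**Figure D3:**
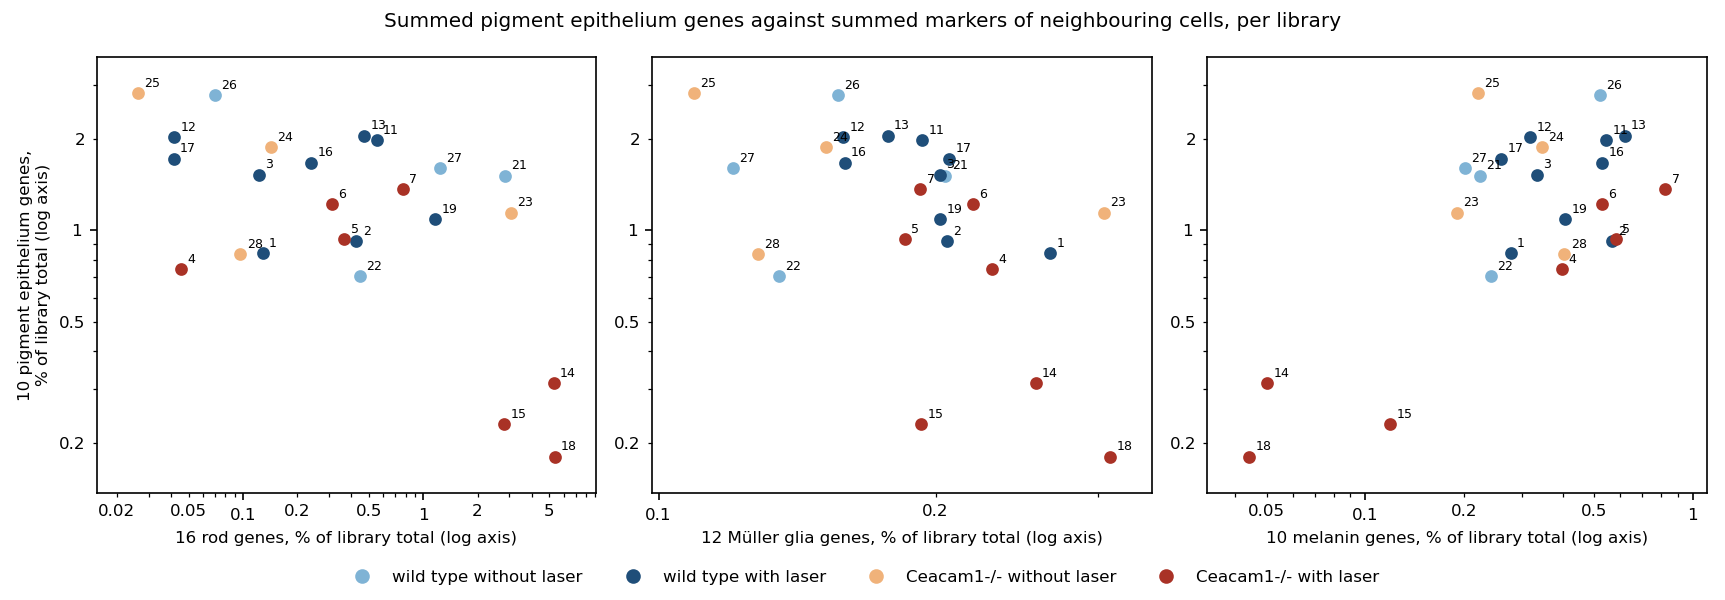
Summed normalized counts of the 10 members against those of 16 rod, 12 Müller glia and 10 melanin genes, each as a percentage of the library total on log axes. Points are libraries with their numbers. Libraries 14, 15 and 18 lie at high rod, low melanin and low member shares, and libraries 21 and 23 have high rod but not low member shares.

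The members kept different proportions to Rpe65 within a library, a ratio that does not depend on the library's size. The ratio of Rgr to Rpe65 had the narrowest range of all members, from 2.92 to 4.96 over the 24 libraries, although Rpe65 itself ranged 27.6-fold. The ratio of Lrat to Rpe65 was between 0.457 and 0.467 in the 4 unlasered wild type libraries and between 0.253 and 0.668 over all. The ratio of Rlbp1 to Rpe65 was between 0.486 and 0.977 in 21 libraries and was 1.99 in library 14, 1.99 in library 15 and 4.61 in library 18. In the rod-rich libraries 21 and 23 the same ratio was 0.866 and 0.977, the upper part of the usual range. Rdh10 followed Rlbp1 in this, with ratios of 0.741, 0.891 and 1.39 in libraries 14, 15 and 18 and at most 0.678 elsewhere. For Ttr the ratio was highest in libraries 28 (10.7) and 1 (10.4) and lowest in libraries 13 (2.52) and 16 (2.53). Its median was 4.16 in wild type libraries without laser (3.46 to 4.73), 4.62 in those with laser (2.52 to 10.4), 6.91 in Ceacam1-/- libraries without laser (4.47 to 10.7) and 6.14 in those with laser (4.89 to 7.78). The lower Rpe65 of libraries 14, 15 and 18 was not matched by Rlbp1 and Rdh10 to the same extent. The ratios of these libraries and groups were noticed after the values were seen and were not tested.

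**Figure D4:**
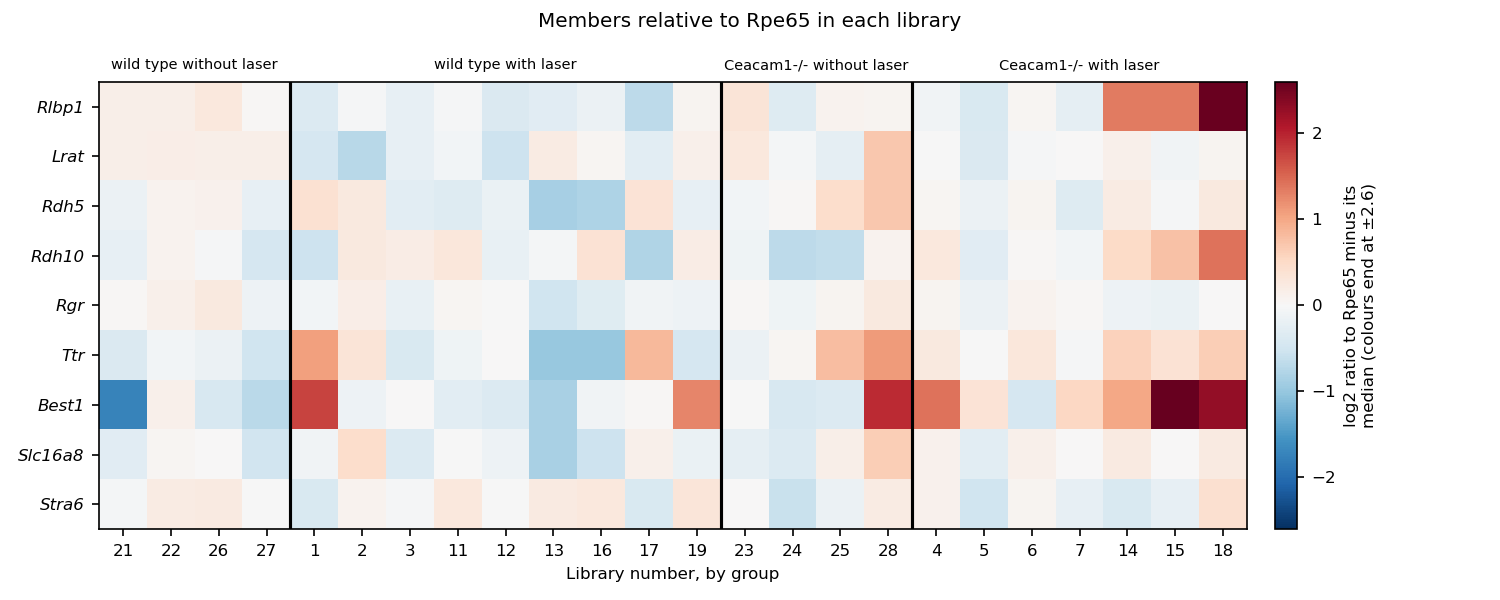
Log2 of each member's ratio to Rpe65 within a library, minus the median of that ratio over 24 libraries, by library and group. Red is a higher and blue a lower ratio. Rlbp1 and Rdh10 are red in libraries 14, 15 and 18, and the Rgr line is nearly white throughout.

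Across the 24 libraries the members varied together, Best1 apart. Pearson's r with Rpe65 on log2 values was 0.990 for Rgr, 0.976 for Stra6, 0.972 for Lrat, 0.968 for Slc16a8, 0.959 for Rdh5, 0.934 for Rdh10, 0.893 for Ttr and 0.854 for Rlbp1 (two-sided permutation p of 1e-05 for each of these 8, the smallest that 100000 resamples can give, and 1.12e-05 with Benjamini-Hochberg adjustment over the 9 relations that include Best1). Spearman's rho was between 0.921 and 0.977 for 7 of these (permutation p = 1e-05 each, adjusted 1.29e-05) and 0.777 for Ttr (permutation p = 4e-05, adjusted 4.5e-05). For Best1 r was 0.473 (permutation p = 0.0187, adjusted 0.0187) and rho 0.362 (permutation p = 0.0838, adjusted 0.0838). Without libraries 18 and 15, which lay farthest from the median of Rpe65, r was between 0.782 for Ttr and 0.981 for Rgr, and 0.432 for Best1. Because the low libraries form a cluster, r was also taken over the 19 libraries that remain without the 5 rod-rich ones, where it was 0.970 for Rgr, 0.955 for Rlbp1, 0.674 for Ttr and 0.247 for Best1. On deviations from the group means r was 0.987 for Rgr, 0.799 for Rlbp1 and 0.413 for Best1, so the shared variation was present within groups. Over the 36 pairs of members without Best1 the median r was 0.923, and the lowest was 0.684 for Rlbp1 with Ttr.

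The genes most like the members were found by Pearson's r, over 24 libraries, with the mean of the members' standardized log2 values. Among the first 10 outside the members were Cltrn (0.987), Pltp (0.980), Pon1 (0.979), Slc6a13 (0.979), Cabcoco1 (0.978), Slc22a8 (0.977), Car14 (0.975), Clic6 (0.974) and Slc13a3 (0.974). Cltrn had a mean of 6629 normalized counts and ran from 944 to 16419, and Cabcoco1 had a mean of 125. Of these genes Car14, a membrane carbonic anhydrase, was in the list of other pigment epithelium genes and Clic6 in that of liver and choroid plexus genes. The members themselves were at ranks 1 (Rgr), 2 (Rpe65), 7 (Slc16a8), 8 (Stra6), 16 (Lrat), 19 (Rdh5), 56 (Rdh10), 87 (Ttr), 173 (Rlbp1) and 1843 (Best1) of the tested genes in the same order, in which each member is also part of the mean.

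Of 33 other genes of retinoid binding, oxidation and breakdown 32 were found and 28 were tested. For laser in wild type mice 3 were called, all higher with laser, against 5.28% of all genes. They were Dhrs9, a retinol dehydrogenase (log2 fold change 4.32, standard error 0.96, adjusted p = 0.00791), Crabp2, a retinoic acid carrier (2.17, standard error 0.61, adjusted p = 0.0382), and Opn3, an opsin (1.09, standard error 0.32, adjusted p = 0.0464). Dhrs9 had 0 to 6.41 normalized counts in unlasered and 1.08 to 137 in laser-treated wild type libraries. For laser in Ceacam1-/- mice 2 were higher, Dhrs9 (4.51, standard error 1.00, adjusted p = 0.0141) and the carrier Crabp1 (2.11, standard error 0.56, adjusted p = 0.0362), and 1 was lower, the retinal dehydrogenase Aldh1a1 (-1.36, standard error 0.37, adjusted p = 0.0429). Crabp1 had 83.1 to 286 normalized counts in laser-treated Ceacam1-/- libraries, above all unlasered ones (16.8 to 71.2). Without the 5 rod-rich libraries 4 genes of the list were higher with laser in wild type mice, where 8.39% of all genes were called, and 4 were higher and 1 lower in Ceacam1-/- mice, where 14.9% were called. Dhrs9, Crabp2 and the retinal dehydrogenase Aldh1a2 were higher in both genotypes, and Rdh13 was the lower one (-0.60, adjusted p = 0.0426). Opn3 was still called in wild type mice (1.19, adjusted p = 0.0328) and Crabp1 in Ceacam1-/- mice (2.15, adjusted p = 0.0286), and the log2 fold change of Aldh1a1 in Ceacam1-/- mice was -0.71 (adjusted p = 0.181), which did not pass. Abundant genes of the list were Rbp3, a carrier made by photoreceptors (mean 12846 normalized counts), Dhrs3 (3672) and Abca4 (3671), none of them called. Rbp3 had a log2 fold change of 2.42 for laser in Ceacam1-/- mice (standard error 1.46, adjusted p = 0.367).

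The 47 other pigment epithelium genes were all tested. For laser in wild type mice 0 were called, and 22 lay above and 25 below 0. For laser in Ceacam1-/- mice 3 were called, all lower with laser, against 3.72% of all genes, and 37 of 47 lay below 0 with a median log2 fold change of -0.57. The 3 were Trpm3, a cation channel (-1.64, standard error 0.42, adjusted p = 0.0311), Enpp2, the enzyme that forms lysophosphatidic acid (-2.25, standard error 0.62, adjusted p = 0.0420), and Ptgds, prostaglandin D2 synthase (-1.84, standard error 0.51, adjusted p = 0.0432). Ptgds was the most abundant of the list with a mean of 182091 normalized counts, and it had 156521 to 582305 in unlasered and 22988 to 163293 in laser-treated Ceacam1-/- libraries. Without the 5 rod-rich libraries the median for laser in Ceacam1-/- mice was -0.24 and 32 of 47 lay below 0. None of the 3 passed then, with log2 fold changes of -1.28 for Trpm3 (adjusted p = 0.0690), -1.24 for Enpp2 (adjusted p = 0.233) and -1.19 for Ptgds (adjusted p = 0.0697). Other genes of the list passed in that fit. Itgb5 was higher with laser in both genotypes, Krt8 was higher in wild type mice, and in Ceacam1-/- mice Serpinf1 was higher and Slc16a3 lower, against 8.39% of all genes called in wild type and 14.9% in Ceacam1-/- mice. For genotype with laser 0 were called and 41 of 47 lay below 0, with a median of -0.68. Without the 5 rod-rich libraries 36 of 47 lay below 0 with a median of -0.29, and 0 were called. The other abundant genes were the matrix inhibitor Timp3 (mean 50814) and Bsg (43208), the partner protein of lactate carriers. The 10 melanin genes showed 0 calls in all comparisons. All 10 of 10 lay below 0 for laser in Ceacam1-/- mice (median log2 fold change -0.44, members -1.56), for genotype with laser (-1.05, members -1.53) and for the interaction (-0.996, members -1.50). Without the 5 rod-rich libraries these medians of the melanin genes were 0.72, 0.33 and 0.43.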

How the data were processed

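RNA was extracted from choroid, and SMART-Seq libraries were sequenced in 24 samples. The authors pseudo-aligned the reads with salmon 1.10.3 to GRCm39, imported them with tximport and normalized them with DESeq2 1.44.0, as the submitters' processing notes and the methods state. The deposited signal values are normalized counts, corrected between libraries for library size and transcript length, so no test on counts was run. The paper's methods remove 1 outlier library and use sex as a covariate. Neither is marked in the labels, and 24 libraries were used here. After the removal the paper's groups held 4 wild type and 4 Ceacam1-/- samples, the same numbers as the libraries without laser here.

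Groups came from the sample labels. The members and gene lists were chosen with earlier results of these data known. Genes with a mean of at least 10 normalized counts in the libraries of a fit were tested with limma 3.58.1 (trended variance, R 4.3.3) after log2 transformation of each value with a pseudocount of 1, with p adjusted by Benjamini-Hochberg over all tested genes and a threshold of 0.05. Laser in each genotype and its interaction with genotype were fitted on 24 libraries, and genotype on the 8 libraries without and the 16 with laser. The fit was tested on simulated data. Correlations used 100000 permutations in Python 3.11.15 with scipy 1.17.1. Gene positions, transcript lengths and upstream windows are of GRCm39 with a GENCODE annotation that matched 99.1% of identifiers. Totals of 23704346 to 35094410 per library are sums of these scaled values, and the raw depth behind each value is unknown.

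Named genes were the 10 members, of the other retinoid and pigment epithelium lists those called and the 4 most abundant, the 10 genes most like the members, and the most abundant gene of each marker list. The values of some genes that this rule names are not reported here. The liver, keratin and Kl values, and those of libraries 14, 15 and 18, were singled out after they were seen. Alternatives were pseudocounts of 0.5 and 10, no filter, quantile and upper-quartile normalization, array weights, a covariate of Y-linked genes, other sets of libraries and leaving out each library in turn. Leaving out the 5 libraries richest in rod genes or the 3 richest in Krt12 was chosen after seeing the data.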

Additional observations from a re-analysis of the deposited data

Results flagged for a closer look

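In 40 combinations of member and group, 1 library lay far from the rest of its group. Wild type library 2 with laser had 21.4 normalized counts of Best1, where the other 8 libraries of the group had 42.7 to 75.3. On log2 values the gap to the nearest library was 0.545 of the group's range, more than Dixon's 95% limit allows for 9 libraries. Chance flags about 1 in 20 groups.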

How the results depend on the processing

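Of 1210 recomputed fold changes of members, 1160 kept their direction and their side of the threshold, 7 passed it and 43 changed sign. With array weights 1 member was called for laser in wild type mice (Best1, adjusted p = 0.0491, where 32.6% of all genes were called) and 1 for laser in Ceacam1-/- mice (Rdh5, adjusted p = 0.0445, where 17.8% were called). Leaving out single libraries gave 0 to 2 called members for laser in Ceacam1-/- mice, 2 (Rdh5 and Ttr) without library 23, where 12.5% of all genes were called, and 1 (Rdh5) without library 28, 6 or 7, where 3.99%, 3.01% and 2.55% were called, and 0 in the other 4 comparisons. The cause was not tested. Over the alternatives 0.187% to 17.8% of all genes were called for laser in Ceacam1-/- mice and 1.95% to 32.6% in wild type mice. For laser in Ceacam1-/- mice 0.742% were called without library 25 and 1.28% without library 24. The 0.187% came from a fit of the compared libraries only. For laser in wild type mice 2.40% were called without library 21. Without the 5 rod-rich libraries the members' median moved from -1.56 to -0.66 for laser in Ceacam1-/- mice and from -1.50 to -0.53 for the interaction, with 0 members called where 14.9% and 0% of all genes were. No alternative changed the sign of a member for laser in Ceacam1-/- mice, for genotype with laser or for the interaction.

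Sign changes in laser in wild type mice were at small values. Rpe65 was -0.10 with the Y-linked covariate and -0.35 without the 3 Krt12-rich libraries, Rdh10 -0.15 and Ttr -0.072 without those, Stra6 0.13 with array weights, and Slc16a8 -0.056 with quantile normalization, -0.10 with the Y-linked covariate, -0.0078 without the rod-rich and -0.26 without the Krt12-rich libraries. Leaving out single libraries gave -0.35 to 0.28 for Rpe65, -0.44 to 0.19 for Rdh5, -0.15 to 0.43 for Rdh10, -0.51 to 0.15 for Rgr, -0.072 to 0.52 for Ttr, -0.26 to 0.35 for Slc16a8 and -0.37 to 0.26 for Stra6. For genotype without laser Slc16a8 was -0.023 with quantile normalization, and leaving out single libraries gave -0.54 to 0.27 for Rpe65, -0.68 to 0.14 for Rlbp1, -0.52 to 0.11 for Lrat, -0.28 to 0.46 for Rdh5, -0.55 to 0.20 for Rgr and -0.33 to 0.39 for Slc16a8.

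No paired analysis was possible because the labels name no mouse, eye or litter, so whether libraries share one is unknown. The median standard error of the members was 0.44 to 0.77 on the log2 scale, and changes of over 3 standard errors, such as that of Rdh5 for laser in Ceacam1-/- mice, did not pass the threshold. Best1 is limited further by its low counts.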

Other observations

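The other marker lists that were set out for tissue around the pigment epithelium gave the following values. Of 14 myeloid genes, led by Lyz2, 12 were higher with laser in wild type mice (median log2 fold change 2.09) and 7 in Ceacam1-/- mice (1.41). With 24 libraries 5.28% of all genes were called for laser in wild type and 3.72% in Ceacam1-/- mice. Of 10 scleral and stromal fibroblast genes, led by Col1a1, Col3a1 and Lum were higher with laser in wild type mice and Lum in Ceacam1-/- mice. Of 12 Müller glia genes Vim was higher with laser in wild type mice and Crym in Ceacam1-/- mice. For laser in Ceacam1-/- mice the lens gene Cryab, the most abundant of its list, and Folr1 of the liver and choroid plexus list were lower. Without the 5 rod-rich libraries 13 of 14 myeloid genes were higher with laser in each genotype (medians 1.82 in wild type and 2.00 in Ceacam1-/- mice), as were 4 of 10 fibroblast genes in wild type (median 0.81) and 7 of 10 in Ceacam1-/- mice (median 1.75). The genes named above that passed with 24 libraries passed there too, with log2 fold changes for laser in wild type mice of 2.28 for Col3a1, 1.65 for Lum and 1.26 for Vim, and in Ceacam1-/- mice of 3.04 for Lum, 2.31 for Crym, -1.47 for Cryab and -2.25 for Folr1. Crym was then called higher with laser in wild type mice as well. In that fit 8.39% of all genes were called for laser in wild type and 14.9% in Ceacam1-/- mice. None of the 12 endothelial genes (led by Plvap), 12 striated muscle genes (Acta1), 8 surface epithelium genes (Krt15), 16 rod genes and 10 ciliary and iris epithelium genes tested (Col9a3) was called in a comparison with limma when no library was left out. The 12 muscle genes all lay below 0 for laser in both genotypes, with medians of -0.99 and -2.07.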
